A study of Mus musculus with 10 samples.

Results

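Phase II conjugation enzymes attach a polar group to drugs, hormones and metabolic waste so that the products can leave the cell. They were followed here in cultured mouse hepatocytes by RNA sequencing. Its members were chosen by gene name, not by a cut on a measured value, although earlier results of these data were known when the set was proposed. It holds 68 protein-coding genes of the 56748 genes in the count table. By symbol they belong to the glutathione transferases (26 genes), UDP-glucuronosyltransferases (21 genes) and cytosolic sulfotransferases (21 genes). Primary hepatocytes of wild-type mice were kept overnight in medium conditioned by cultured adipocytes, and total RNA was sequenced after poly-A selection. Both media came from adipocytes that had been starved overnight, grown from the stromal vascular cells of inguinal fat of male mice on an obesogenic diet for 6 months. Fat donors were Mttp f/f mice for the group Mttp_flox_CM and A-Mttp-/- mice, which lack Mttp in adipose tissue, for Mttp_KO_CM, and the labels give n = 3 for these donors. Mttp encodes microsomal triglyceride transfer protein, and the hepatocytes of both groups carried the gene. No source used here names the driver of the adipose deletion, or the age and sex of the hepatocyte donors. The labels call the control donors Mttp f/f, while the series' design text calls them wild type. Each group had 5 libraries, and nothing in the labels says that these came from separate cultures or animals. The p-values below therefore measure only the spread between libraries, which may be technical.

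Glutathione transferases join glutathione to reactive electrophiles, and most are soluble enzymes, while the Mgst proteins sit in membranes. UDP-glucuronosyltransferases of the endoplasmic reticulum move glucuronic acid from UDP-glucuronic acid onto bilirubin, steroids and drugs, and cytosolic sulfotransferases move sulfate from the donor PAPS onto phenols, steroids and catecholamines. The liver is rich in all 3 kinds, and the sensors NRF2, AhR, CAR and PXR are known to control many of these genes.

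With knockout medium, 5 of the 9 sulfotransferases tested fell, led by Sult1a1, and 2 rose. Of the 23 glutathione transferases tested 5 rose and 3 fell, and of the 16 UDP-glucuronosyltransferases 3 rose and none fell. Whether the classes differ from each other was not tested. Of 48 members with enough counts to test, 10 were higher and 8 lower with knockout medium (edgeR, adjusted p under 0.05 over all genes tested). That is 37.5% of the tested members called in either direction, against 36.4% of all 14183 genes tested. Among all genes 18.2% were higher and 18.1% lower, and among the members 20.8% and 16.7%. As a whole set the members therefore stood close to the background. A call at 1.5-fold or more was made for 3 members, Sult1a1, Gstt2 and Sult1c2, and for 7.47% of all genes. The groups did not overlap for 13 members, 7 above and 6 below, which is 27.1% of the members tested and 25.7% of all genes tested. The median log2 change, always knockout over floxed medium, was -0.01 for the members and 0.00 for all genes.

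**Figure D1:**
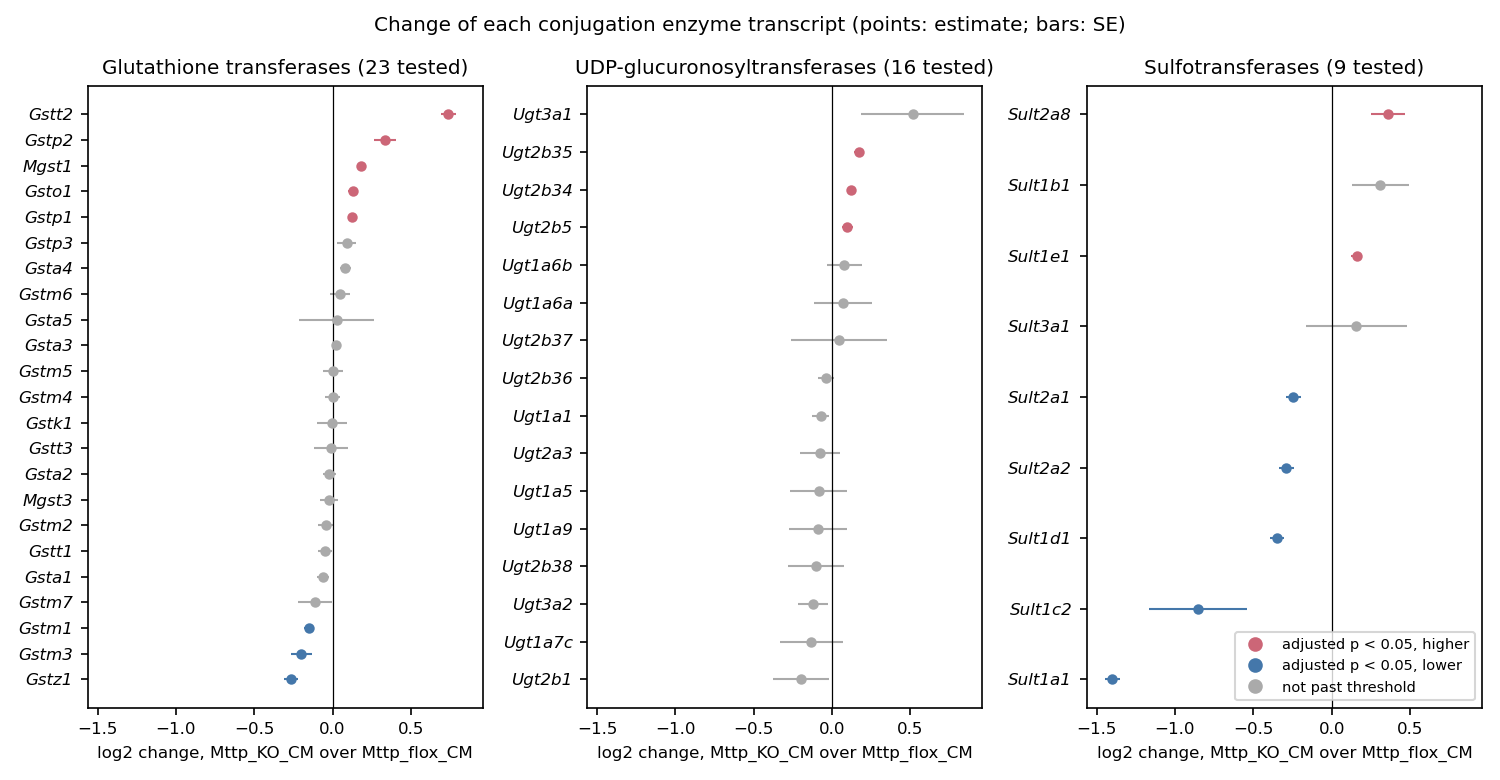
Log2 change of each tested member, Mttp_KO_CM over Mttp_flox_CM, in a panel for each class; points are edgeR estimates, bars their standard errors, and colour marks an adjusted p under 0.05. Sult1a1 lies farthest from 0 at -1.40, Gstt2 is the highest called member at 0.74, and no UDP-glucuronosyltransferase was called lower.

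Library totals ran from 14199798 to 17178131 counts, and the first principal component, which separated the groups, carried 50.7% of the variance. Of 9 hepatocyte markers tested, 7 were lower and 1 higher with knockout medium, and their summed level went from between 45684 and 47474 CPM (counts scaled to library size) to between 39444 and 40453. All 12 endothelial markers were lower (summed 2406 to 2578 CPM, then 1372 to 1456), as were 10 of 12 stellate cell markers (117 to 131 CPM, then 66.2 to 74.2), 11 of 12 macrophage markers, with 1 higher (948 to 1049 CPM, then 679 to 771), and 5 of 9 cholangiocyte markers (575 to 639 CPM, then 320 to 387). The 2 tested markers of lymphocytes and neutrophils did not pass, and Cd3d and Nkg7 were at 0. All 3 adipocyte markers tested, of 8 listed, rose (list sum 102 to 116 CPM, then 126 to 138). Lep and Cfd were at 0, and the rest were too scarce to test. Which cells these adipocyte marker transcripts came from was not tested. Among all genes tested, 18.2% were higher and 18.1% lower. In such bulk cultures, fewer cells of a type and less RNA per cell cannot be told apart. The part of these shifts in the member results was not tested. Scaling also mattered for the balance of calls: 2585 genes were higher and 2571 lower with TMM scaling, but 1982 and 3217 with library size alone.

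The promoters below are shown for the sulfotransferase with the largest change and for a pair of neighbouring sulfotransferases that moved in opposite directions. Also shown are a pair of similar glutathione transferases that rose together, and the called member with a match to TGACNNNGC, a form of the antioxidant response element core. They are the 250 bases before the start site in RefSeq annotation of GRCm38.p6, 5′ to 3′ on the strand of the gene, and capitals mark motif matches. Sult1a1 lies at chr7:126676419-126676668 (minus), Sult1d1 at chr5:87569007-87569256 (minus), Sult1e1 at chr5:87591612-87591861 (minus), Gstp1 at chr19:4037913-4038162 (minus), Gstp2 at chr19:4042222-4042471 (minus) and the upstream start of Mgst1 at chr6:138140277-138140526 (plus).
Sult1a1: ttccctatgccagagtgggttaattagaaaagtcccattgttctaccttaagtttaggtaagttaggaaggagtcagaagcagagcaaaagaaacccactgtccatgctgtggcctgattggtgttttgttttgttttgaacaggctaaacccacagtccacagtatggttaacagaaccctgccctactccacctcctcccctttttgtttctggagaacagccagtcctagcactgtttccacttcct
Sult1d1: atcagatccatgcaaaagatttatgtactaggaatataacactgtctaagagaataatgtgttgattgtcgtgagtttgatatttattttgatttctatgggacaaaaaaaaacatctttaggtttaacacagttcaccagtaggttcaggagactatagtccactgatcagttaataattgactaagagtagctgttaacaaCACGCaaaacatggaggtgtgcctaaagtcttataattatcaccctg
Sult1e1: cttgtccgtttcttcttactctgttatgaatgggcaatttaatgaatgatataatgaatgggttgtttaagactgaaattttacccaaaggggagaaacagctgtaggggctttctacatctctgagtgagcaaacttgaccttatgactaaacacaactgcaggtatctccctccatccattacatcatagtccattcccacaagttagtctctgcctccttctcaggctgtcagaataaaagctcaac
Gstp1: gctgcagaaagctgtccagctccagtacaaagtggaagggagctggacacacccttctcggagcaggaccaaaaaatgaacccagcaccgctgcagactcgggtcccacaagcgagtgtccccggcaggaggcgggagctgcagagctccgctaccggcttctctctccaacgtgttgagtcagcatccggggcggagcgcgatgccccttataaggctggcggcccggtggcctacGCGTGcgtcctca
Gstp2: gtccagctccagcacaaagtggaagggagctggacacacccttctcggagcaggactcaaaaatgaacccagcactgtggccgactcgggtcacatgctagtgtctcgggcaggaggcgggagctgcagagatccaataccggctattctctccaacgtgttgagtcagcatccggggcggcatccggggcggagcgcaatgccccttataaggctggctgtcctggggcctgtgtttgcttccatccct
Mgst1: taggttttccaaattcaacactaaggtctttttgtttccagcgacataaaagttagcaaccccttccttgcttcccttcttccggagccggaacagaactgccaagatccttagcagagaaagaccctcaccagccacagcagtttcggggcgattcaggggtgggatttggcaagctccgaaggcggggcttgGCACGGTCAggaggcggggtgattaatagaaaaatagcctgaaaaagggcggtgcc

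RefSeq promoters were matched for 59 of the 68 members, and windows from 250 bases before to 50 after each start were searched on both strands for exact letters. TGACNNNGC, a form of the core of the antioxidant response element bound by NRF2, was found for 4 members. These were Gsta3, Gstm5, Gstm7 and Mgst1, or 6.78%, against 13.99% of 27025 genes with a promoter. The windows of Gstp1 and Gstp2 both hold tgagtcagc, with TGAG in place of TGAC, which was not searched for. The count is therefore of this exact form only. GCGTG, the core bound by AhR, was found for 12 members, or 20.3%, against 35.2% of genes, and of the promoters above it lies in those of Sult1d1 and Gstp1. A direct repeat of AGGTCA with 1 base between the copies, the form bound by PPAR and RXR, was found for 0 of 59 members and for 0.0481% of genes. In Gstm5 a GCGTG match on the other strand lies within the TGACNNNGC match, and the complement of AGGTCA begins with TGAC, so matches of different motifs can overlap. Gstp1 and Gstp2 were identical at 208 of 235 aligned promoter bases (88.5%). A match describes the letters in the window only.

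Sulfotransferases fell in 5 of the 9 genes tested and rose in 2, and the other 2 did not pass. The share called was 77.8%, with 55.6% lower, against 36.4% and 18.1% of all genes tested, and the median log2 change was -0.24. The lower calls include Sult2a1 and Sult2a2, which share transcript sequence, and Sult1c2, whose call was lost under 6 alternatives. The summed level per kilobase of the class fell from 455 ± 4.88 (SD, n = 5) to 372 ± 18.6 CPM per kb. Floxed-medium libraries lay between 447 and 460 and knockout-medium libraries between 353 and 403, so the groups did not overlap.

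Sult1a1, the main phenol sulfotransferase, showed the largest change of any tested member. It had 115, 120, 118, 106 and 101 CPM in Mttp_flox_CM and 39.4, 42.3, 45.5, 41.9 and 43.2 CPM in Mttp_KO_CM, listed for replicates 1 to 4 and then the library without a label number. Every floxed-medium library held more than every knockout-medium library by a wide margin. The means were 112 ± 7.91 and 42.4 ± 2.23 CPM, or 2.64-fold lower with knockout medium (log2 -1.40, SE 0.049, adjusted p = 2.5e-17). In GRCm39, Sult1a1 (ENSMUSG00000030711) occupies bases 126272037 to 126275604 of chromosome 7, minus strand. It overlaps Sgf29 on the plus strand, which had 10.2 and 10.1 CPM and did not pass the test. Within the class sum per kilobase, its share went from 16.3 ± 1.26% to 7.58 ± 0.349%.

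Sult1d1 and Sult1e1 lie next to each other on chromosome 5 and moved in opposite directions. Sult1d1, which sulfates catecholamines and was the most abundant sulfotransferase transcript per kilobase with floxed medium, had 358, 356, 349, 384 and 391 CPM there and 277, 251, 322, 296 and 295 CPM with knockout medium. Its groups were separate, with knockout replicate 3 the closest to the floxed range. Sult1d1 fell from 368 ± 18.7 to 288 ± 26.2 CPM (log2 -0.35, SE 0.046, adjusted p = 1.1e-06). Sult1e1, the estrogen sulfotransferase, had 151, 141, 140, 144 and 144 CPM with floxed medium and 159, 159, 175, 157 and 153 CPM with knockout medium, again without overlap. It rose from 144 ± 4.20 to 161 ± 8.38 CPM (log2 0.16, SE 0.036, adjusted p = 9.0e-04). Per kilobase, Sult1d1 went from 150 ± 7.59 to 117 ± 10.7 CPM per kb and Sult1e1 from 116 ± 3.39 to 129 ± 6.74, so that Sult1e1 came first with knockout medium. Its share of the class sum went from 25.5% to 34.8%, and that of Sult1d1 from 32.8% to 31.5%. Sult1d1 (ENSMUSG00000029273) spans 87702504 to 87716886 and Sult1e1 (ENSMUSG00000029272) 87723828 to 87739453, both in GRCm39 and on the minus strand. Neither shares a 50-base stretch of transcript with another member.

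The hydroxysteroid sulfotransferases of the Sult2a cluster on chromosome 7 act on steroids and bile acids, and 3 of its 8 genes had enough counts to test. Sult2a2 had 52.0, 51.7, 51.2, 52.1 and 53.8 CPM with floxed medium and 44.8, 42.2, 46.0, 42.2 and 37.8 with knockout medium, and fell (log2 -0.29, SE 0.047, adjusted p = 2.6e-05). Sult2a1 had 42.4, 41.1, 40.1, 38.6 and 38.3 CPM, then 36.5, 32.3, 31.7, 33.2 and 35.7, and fell by 0.24 on the log2 scale (SE 0.050, adjusted p = 3.5e-04). For both genes all knockout-medium libraries were below all floxed-medium libraries. Sult2a8 had 6.98, 7.23, 8.56, 10.7 and 9.20 CPM, then 11.3, 10.3, 12.1, 10.2 and 10.9, and rose by 0.36 (SE 0.11, adjusted p = 0.011) with overlapping groups. Transcripts of Sult2a2 share 62.1% of their 50-base words with other members and those of Sult2a1 33.2%, so reads could be split between them. Summed with Sult2a5, the pair fell by 0.27 (SE 0.037, adjusted p = 1.9e-06).

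Among the scarce sulfotransferases, Sult1c2 was called lower, from 1.19 ± 0.509 to 0.651 ± 0.137 CPM (log2 -0.85, SE 0.31, adjusted p = 0.034). It is named here after its values were seen, because it is 1 of the 3 members called at 1.5-fold. The call was lost without floxed replicate 2 or 3, without knockout replicate 1, 2 or the unnumbered one, and on FPKM values, with log2 changes of -0.64, -0.76, -0.79, -0.81, -0.81 and -0.27. Sult1b1, known for thyroid hormone sulfation, stood at 2.67 ± 0.661 and 3.27 ± 0.475 CPM (log2 0.31, SE 0.18, adjusted p = 0.20). Sult3a1 had 0.770 and 0.854 CPM and did not pass either. The other 12 members were too scarce to test. Sult5a1, Sult6b1, Sult2b1, Sult4a1, Sult3a2, Sult6b2, Sult2a7, Sult2a5, Sult2a3 and Sult2a4 had between 94 and 1 counts over all 10 libraries. Sult1c1 and Sult2a6 had 0, which allows up to 3 counts, or 0.0197 CPM over all libraries.

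**Figure D2:**
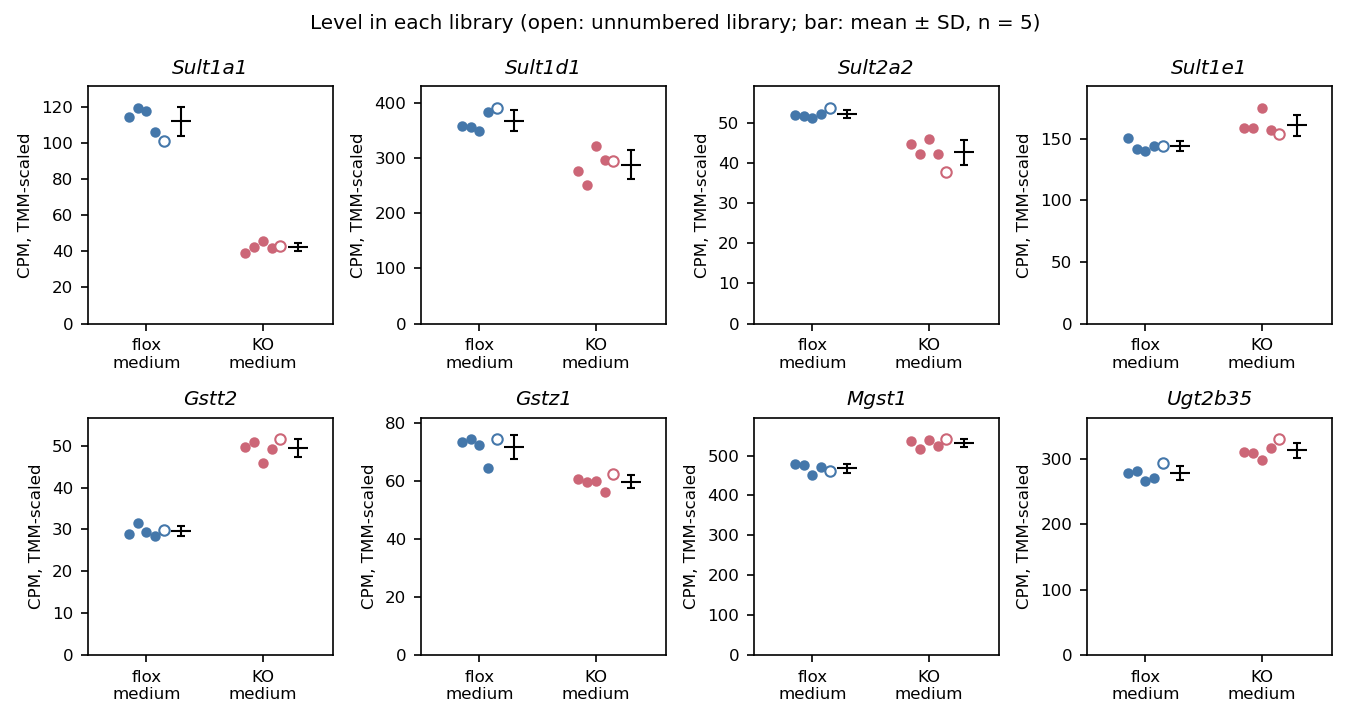
Level of 8 called members in each library, in TMM-scaled CPM on axes that start at 0; filled points are numbered libraries, open points the unnumbered one of each group, and the crosses and bars show mean ± SD (n = 5). Sult1a1 separates the groups most widely, at 112 ± 7.91 against 42.4 ± 2.23 CPM, while Sult1e1, Mgst1 and Ugt2b35 differ by small steps above the spread of the libraries.

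Glutathione transferases were called at about the background rate, with 5 higher, 3 lower and 15 without a call among 23 tested (34.8% called). Their median log2 change was 0.00, and their summed level was 2239 ± 51.5 CPM per kb with floxed medium and 2246 ± 31.4 with knockout medium, a ratio of 1.00. The calls concerned single genes in both directions, and all but Gstt2 changed by less than 1.5-fold.

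Gstt2, a theta class enzyme, made the largest rise of any tested member. It had 28.9, 31.5, 29.5, 28.5 and 29.8 CPM with floxed medium and 49.7, 51.0, 46.0, 49.2 and 51.6 CPM with knockout medium. The groups lay far apart relative to their spread, at 29.6 ± 1.16 and 49.5 ± 2.19 CPM, a 1.67-fold rise (log2 0.74, SE 0.046, adjusted p = 2.6e-12). In GRCm39, Gstt2 (ENSMUSG00000033318) occupies bases 75666948 to 75673258 of chromosome 10, minus strand. The other tested genes of that cluster did not pass: Gstt1 had 45.7 ± 2.18 and 44.2 ± 1.87 CPM (log2 -0.05), and Gstt3 15.4 ± 2.72 and 15.3 ± 2.44 CPM (log2 -0.01).

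Gstm1, a mu class enzyme, was the most abundant member of all per kilobase, at 730 ± 25.8 CPM per kb with floxed medium and 657 ± 23.2 with knockout medium. Its levels were 1074, 1134, 1035, 1050 and 1084 CPM, then 1022, 959, 963, 927 and 968. Groups did not overlap, although knockout replicate 1 came near the lowest floxed library, and Gstm1 fell by 0.15 (SE 0.028, adjusted p = 1.3e-04). Its share of the class sum went from 32.6% to 29.2%. Gstm3 had 21.9, 20.1, 20.7, 22.3 and 22.6 CPM, then 20.3, 16.1, 19.997, 18.2 and 19.1, and was called lower with overlapping groups (log2 -0.20, SE 0.067, adjusted p = 0.022). The Gstm3 call was lost without knockout replicate 2 (log2 -0.15, adjusted p = 0.070) and without both unnumbered libraries (log2 -0.19, adjusted p = 0.064). All 7 Gstm genes on chromosome 3 were tested, and Gstm2, Gstm4, Gstm5, Gstm6 and Gstm7 did not pass, with log2 changes from -0.11 for Gstm7 to 0.05 for Gstm6. Of the 50-base words in their transcripts, 19.3% for Gstm1 and 24.0% for Gstm3 also occur in a gene outside the set.

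The pi class genes Gstp1 and Gstp2 rose together. Gstp1 had 771, 766, 773, 741 and 737 CPM with floxed medium and 834, 817, 874, 800 and 807 with knockout medium (log2 0.13, SE 0.027, adjusted p = 5.7e-04). Gstp2 had 22.6, 24.4, 22.3, 24.0 and 22.5 CPM, then 32.9, 33.8, 27.4, 24.7 and 27.5 (log2 0.34, SE 0.072, adjusted p = 5.9e-04). Neither gene's groups overlapped, and the knockout values of Gstp2 were the more scattered, at 29.3 ± 3.91 CPM against 23.2 ± 0.963. Transcripts of Gstp1 share 51.0% of their 50-base words with Gstp2, and those of Gstp2 44.3% with Gstp1, so the smaller count may hold reads of the larger. Words also found in a gene outside the set made up 37.3% for Gstp1 and 38.1% for Gstp2, which no sum of members covers. Their sum rose by 0.13 (SE 0.027, adjusted p = 3.0e-04). Gstp1 held most of that sum, at 758 of 781 CPM with floxed medium, so the sum says little about Gstp2 alone. Gstp3, the other gene of this cluster on chromosome 19, stood at 20.1 ± 1.19 and 21.4 ± 0.670 CPM and did not pass (log2 0.09).

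Alpha class genes, which also conjugate products of lipid peroxidation, were not called. Gsta1, behind only Gstm1 and Gstp1 per kilobase, had 292, 282, 268, 254 and 289 CPM, then 255, 258, 260, 292 and 261. Knockout replicate 4 reached the top of the floxed range while the other knockout libraries lay near its bottom (277 ± 15.8 and 265 ± 15.2 CPM, log2 -0.06, SE 0.039, adjusted p = 0.22). Without that library the log2 change was -0.10 and passed (adjusted p = 0.029). Gsta2, Gsta3, Gsta4 and Gsta5 had log2 changes of -0.02, 0.02, 0.08 and 0.03. Gsta1, Gsta2 and Gsta5 share between 41.3% and 49.6% of their 50-base words with other members, and their sum had a log2 change of -0.05 (adjusted p = 0.24). Genes outside the set hold 82.9% of the words of Gsta1, 29.9% of those of Gsta2 and 35.8% of those of Gsta5, so these counts remain uncertain even when summed.

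Mgst1, the membrane-bound transferase of endoplasmic reticulum and mitochondria, rose from 479, 476, 451, 472 and 461 CPM to 536, 516, 539, 525 and 541. The groups were separate, at 468 ± 11.9 and 531 ± 10.5 CPM (log2 0.18, SE 0.026, adjusted p = 2.7e-06). Gsto1, an omega class enzyme that reduces dehydroascorbate, had 146, 152, 141, 142 and 145 CPM, then 164, 157, 150, 162 and 162, and rose by 0.13 (SE 0.033, adjusted p = 0.0027), with knockout replicate 3 inside the floxed range. Gstz1, the maleylacetoacetate isomerase of tyrosine breakdown, had 73.5, 74.5, 72.6, 64.7 and 74.4 CPM, then 60.8, 59.6, 60.1, 56.2 and 62.4. It fell by 0.27 (SE 0.044, adjusted p = 3.5e-05) without overlap, and floxed replicate 4 was low for its group. Gstz1 (chromosome 12 from 87193939 to 87211497, plus strand) overlaps Pomt2 on the other strand, which stood at 39.1 and 41.4 CPM without a call. Gstk1, the kappa enzyme of mitochondria and peroxisomes, did not pass at 14.1 ± 0.842 and 13.99 ± 2.31 CPM, nor did Mgst3 at 25.3 ± 1.96 and 24.9 ± 1.09. Mgst2, Gsto2 and Gstt4 were too scarce to test, with 66, 57 and 4 counts over all libraries. Gsto2 passed when no filter was applied, at 0.200 ± 0.178 and 0.548 ± 0.128 CPM (log2 1.43, SE 0.53, adjusted p = 0.042).

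UDP-glucuronosyltransferases had 3 genes higher, 0 lower and 13 without a call among 16 tested. That is 18.8% called, against 36.4% of all genes tested, with a median log2 change of -0.06. The share higher was near the 18.2% of all genes, and none was lower, against 18.1%. At an unadjusted p under 0.05 none was lower either, and DESeq2 also called 3 higher and 0 lower. The 3 that rose were the 3 most abundant per kilobase, all of the Ugt2b family, which glucuronidates steroids and drugs. Their SEs were 0.028 to 0.036, while those of scarcer members reached 0.33 for Ugt3a1, so small changes of scarce members could go uncalled. The class sum per kilobase went from 343 ± 10.6 to 367 ± 10.2 CPM per kb, with floxed-medium libraries from 331 to 355 and knockout-medium libraries from 356 to 377. These ranges nearly touched, at 354.9 in the unnumbered floxed library and 356.1 in knockout replicate 4. The TMM factors of those libraries were 1.014 and 0.993, so the separation depends on the scaling.

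Ugt2b35 had 278, 282, 267, 271 and 293 CPM with floxed medium and 311, 309, 298, 317 and 330 with knockout medium. The lowest knockout library stood just above the highest floxed one, and the gene rose by 0.17 (SE 0.031, adjusted p = 1.1e-04). Ugt2b34 had 355, 351, 333, 356 and 365 CPM, then 390, 372, 383, 381 and 391, and rose by 0.12 (SE 0.028, adjusted p = 0.0011) without overlap. Ugt2b5, the highest of the class per kilobase at 121 ± 5.86 and 130 ± 6.45 CPM per kb, had 223, 243, 219, 215 and 229 CPM, then 255, 234, 248, 225 and 246. Its groups overlapped, and its log2 change of 0.10 (SE 0.036, adjusted p = 0.036) was lost as a call under 10 of 18 alternatives, with changes from 0.06 to 0.12. Leaving out any of floxed replicates 1, 3 and 4, knockout replicates 1 and 3 or the unnumbered knockout library ended it. Ugt2b5 shares 41.7% of its 50-base words with other members, mostly with Ugt2b38.

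The remaining genes of this class, which was drawn up by symbol, were lower in abundance and gave no call. Ugt2b36 stood at 48.0 ± 1.36 and 46.7 ± 3.77 CPM (log2 -0.04, SE 0.050). Ugt1a1, which clears bilirubin, had 34.3 ± 2.31 and 32.6 ± 1.42 CPM (log2 -0.07, SE 0.052, adjusted p = 0.30). The 9 Ugt1a genes lie within 164.6 kb of chromosome 1 and share their last exons, so that 54.2% to 96.0% of their 50-base words occur in another member, and counts per gene are uncertain there. None of the 6 tested Ugt1a genes was called, and the sum of all 9 had a log2 change of -0.05 (SE 0.045, adjusted p = 0.39). Ugt3a2, Ugt2a3, Ugt2b1, Ugt2b38, Ugt2b37 and Ugt3a1 lay between 13.1 CPM and 0.701 CPM with floxed medium, and their log2 changes ran from -0.20 for Ugt2b1 to 0.52 for Ugt3a1 (SE 0.33). Ugt1a10, Ugt1a2 and Ugt1a8 had 11, 7 and 1 counts over all libraries, and Ugt2a1 and Ugt2a2 had 0.

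**Figure D3:**
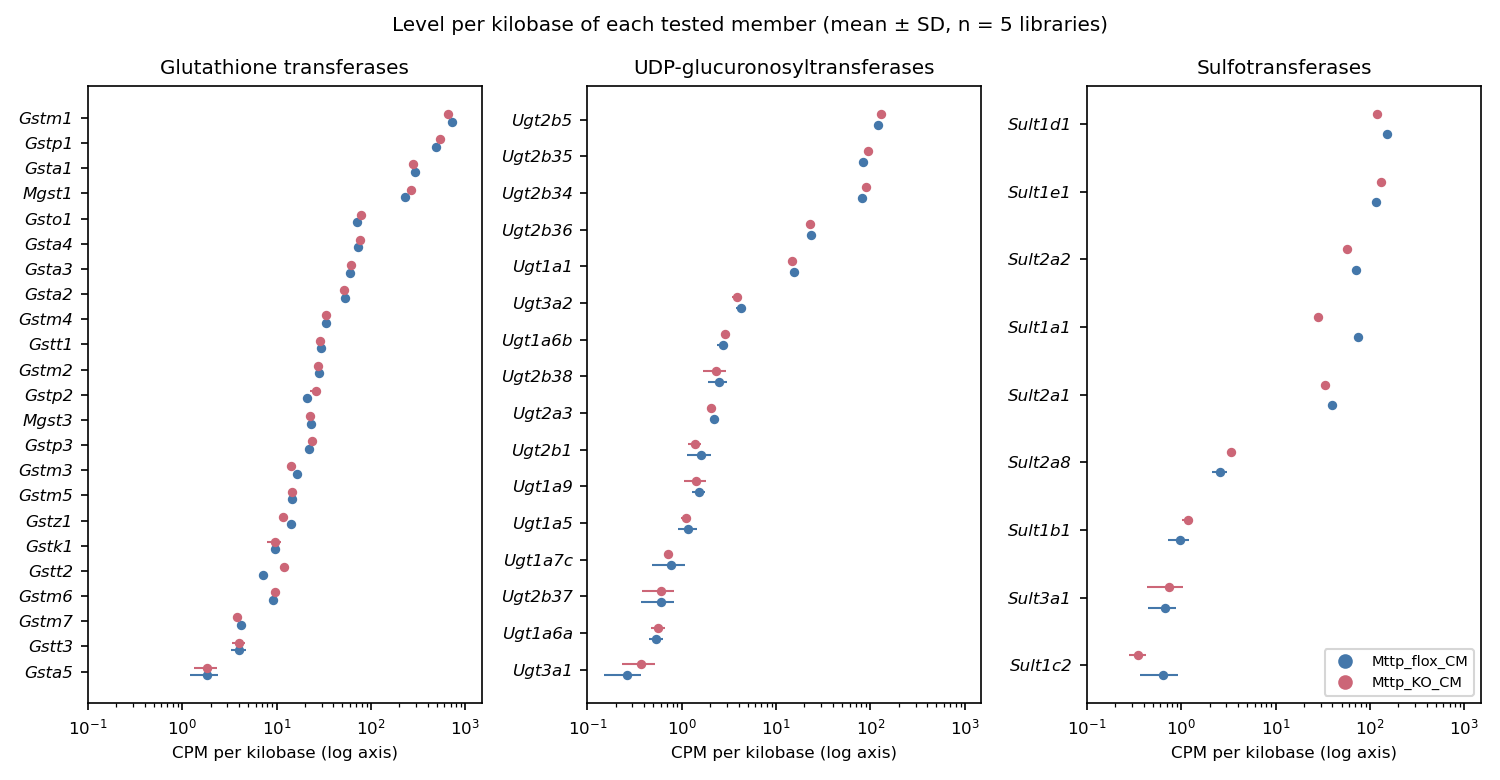
Level per kilobase of every tested member in each group, in TMM-scaled CPM per kb on a log axis; points are means and bars SD over 5 libraries. A few genes hold most of each class, led by Gstm1 at 730 and 657, Ugt2b5 at 121 and 130, and Sult1d1 at 150 and 117 CPM per kb, and the Sult1a1 points are the widest apart.

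By position, the 13 members between 87037626 and 87739453 of chromosome 5 held 4 of the higher calls, Ugt2b34, Ugt2b35, Ugt2b5 and Sult1e1, and the fall of Sult1d1. The Gstm cluster had 2 lower and 0 higher, the Gstp cluster 2 higher and 0 lower, the Sult2a cluster 1 higher and 2 lower, and the Gsta cluster of chromosome 9 and the Ugt1a cluster 0 of either. These counts are small, with 7 genes tested in the Gstm cluster and 3 in the Gstp cluster. Among all genes tested, 18.2% were higher and 18.1% lower. The Gstm3 call was lost under 3 alternatives, and Gstp1 and Gstp2 share transcript sequence. Whether neighbouring members moved together was not tested.

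Genes that supply the cofactors moved in both directions. Each list count below is to be read beside all genes tested, of which 18.2% were higher and 18.1% lower. Of 11 genes for PAPS and sulfate supply tested, 4 were higher and 2 lower (median log2 0.04). Cdo1, the cysteine dioxygenase on the route from cysteine to sulfate and taurine, fell from 961 ± 41.1 to 591 ± 37.4 CPM (log2 -0.70, SE 0.036). The sulfate transporter Slc26a2 fell by 0.42, from 30.3 ± 1.94 to 22.7 ± 1.69 CPM. Bpnt1 and Bpnt2, phosphatases that clear the spent donor, rose by 0.27 and 0.17. The PAPS synthases differed: Papss2 rose by 0.12 to 247 ± 11.4 CPM, and Papss1 stood at 24.6 ± 1.48 and 24.3 ± 1.51 CPM without a call.

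Of 15 glutathione supply genes, 5 were higher and 4 lower (median log2 0.04), against 18.2% and 18.1% of all genes tested. Oplah, the oxoprolinase of the glutathione cycle, rose from 120 ± 2.12 to 198 ± 10.7 CPM (log2 0.72, SE 0.035), and Gsr, glutathione reductase, from 487 ± 10.6 to 673 ± 11.4 CPM (log2 0.47). Cbs, the first enzyme of transsulfuration, fell from 102 ± 3.41 to 64.8 ± 1.36 CPM (log2 -0.65). The subunits of glutamate-cysteine ligase moved apart: the modifier Gclm rose by 0.43 and the catalytic Gclc fell by 0.20, to 1735 ± 20.7 CPM. Among 17 other glutathione enzymes 7 were higher and 1 lower (median log2 0.06), with Glrx up by 0.45, Glrx5 by 0.37 and Esd by 0.22, and the secreted peroxidase Gpx3 down from 48.2 ± 3.60 to 24.8 ± 1.62 CPM (log2 -0.96). Of 8 genes that process glutathione conjugates 5 rose and 0 fell (median log2 0.13), led by the cysteine conjugate lyase Kyat3, from 62.4 ± 1.18 to 110 ± 1.06 CPM (log2 0.82). Kyat1, Anpep and Acy3 rose by 0.13, 0.20 and 0.14. The count of 5 rested on single libraries: it was 3 without any 1 floxed library, without knockout replicate 3 or without the unnumbered knockout library. DESeq2 also called 3 of these 8 higher, and 0 were lower by DESeq2 or at an unadjusted p under 0.05 in edgeR. The 1 lower call among the other glutathione enzymes became 2 without floxed replicate 2 or 3, and 3 without knockout replicate 3 or the unnumbered knockout library.

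For UDP-glucuronic acid supply, 4 of 11 tested genes rose and 2 fell (median log2 0.03). Ugp2, which makes UDP-glucose, fell from 403 ± 6.96 to 293 ± 12.9 CPM (log2 -0.46, SE 0.029), while Ugdh, which oxidises it to UDP-glucuronic acid, rose by 0.07 from 1396 ± 31.0 to 1466 ± 40.2 CPM. Slc35d1, a carrier of UDP-glucuronic acid into the endoplasmic reticulum, rose by 0.38 and Pgm1 by 0.27, and the pyrophosphatase Enpp3 fell by 0.47. With library size alone 2 of the 11 were called higher. Of 7 tested genes of deconjugation, a list of glucuronidase, sulfatases and the sulfatase-modifying factors Sumf1 and Sumf2, 2 rose. These were the sulfatase Arsg, by 0.22, and Sumf2, which modifies sulfatases and removes no conjugate itself, by 0.33. None fell by edgeR, at an unadjusted p or by DESeq2 (median log2 -0.01), while library size alone called 1 lower. Gusb, the lysosomal glucuronidase, stood at 81.3 ± 3.91 and 78.6 ± 3.74 CPM without a call.

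Of 7 export pumps for conjugates, 3 rose and 2 fell (median log2 0.08), and the 2 became 1 without floxed replicate 4 or without either unnumbered library. Abcc2, the canalicular pump for glucuronides and glutathione conjugates, rose from 663 ± 14.7 to 883 ± 60.8 CPM (log2 0.41, SE 0.035). Abcc1 rose by 0.74 from a low level, 34.3 ± 2.08 CPM, Abcc4 rose by 0.33 and Abcc6 fell by 0.32. Abcc3, the basolateral pump for glucuronides, had 1092 ± 21.5 and 1090 ± 35.3 CPM (log2 0.00, SE 0.026).

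Among 17 sensors and NRF2 pathway genes tested, 8 were higher and 2 lower (median log2 0.05), and the 2 became 1 without floxed replicate 2 or without knockout replicate 3. Ahr, the receptor for aromatic ligands, fell from 149 ± 8.32 to 90.7 ± 2.97 CPM (log2 -0.72, SE 0.039). Nfe2l1, Mafk and Cebpb rose by 0.25, 0.29 and 0.26. Nfe2l2, which encodes NRF2, had 309 ± 9.55 and 320 ± 10.1 CPM and did not pass (log2 0.05, SE 0.029), and Nr1i2, which encodes PXR, had 56.0 ± 2.81 and 54.5 ± 0.952 CPM (log2 -0.04). Nr1i3, which encodes CAR, was scarce and rose from 3.34 ± 0.703 to 5.24 ± 1.08 CPM (log2 0.65, SE 0.17), and is named after its values were seen.

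**Figure D4:**
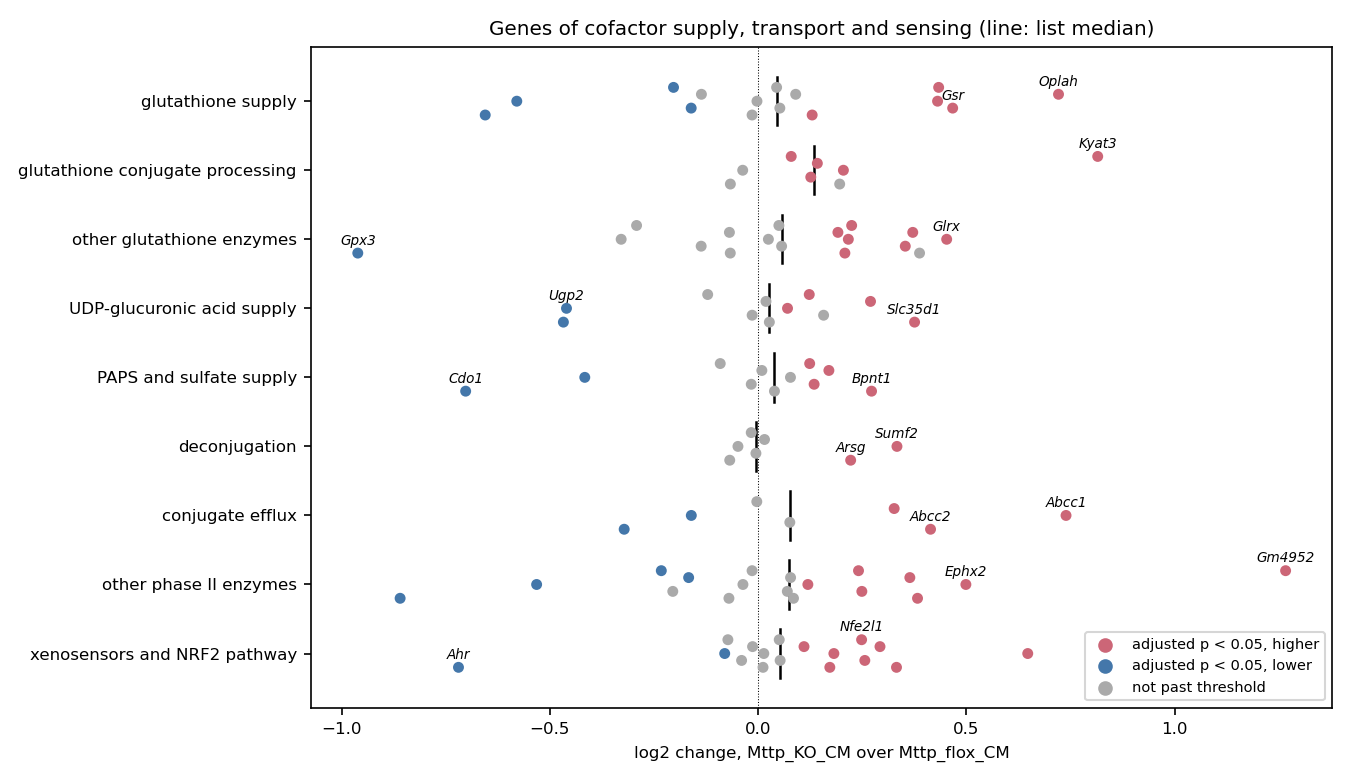
Log2 change of each tested gene of the 9 lists around the conjugation step, Mttp_KO_CM over Mttp_flox_CM; colour marks an adjusted p under 0.05 and the vertical lines are list medians. Most list medians lie near 0, and single genes such as Cdo1 at -0.70, Ahr at -0.72, Gpx3 at -0.96, Kyat3 at 0.82 and Abcc1 at 0.74 stand away from them.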

How the data were processed

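Poly-A selected RNA of 10 hepatocyte libraries was compared, 5 per group. The authors deposited whole-number counts per gene and FPKM values; per the submitters' processing notes HISAT2 2.0.5, featureCounts 1.5.0-p3 and GRCm39 were used. Strand setting, multi-mapped reads and annotation release: not given in the sources used here. By its protocol in the labels, the library was read as unstranded. Column names matched the labels for 8 libraries; the other 2, 1 per group, were placed by their letter only and are called unnumbered.

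Members were the protein-coding genes whose symbols match the families Gst with a class letter and number, Mgst1 to Mgst3, Ugt1 to Ugt3 and Sult. The members and the gene lists were chosen with earlier results of these data known (10 pathway and 7 marker lists).

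Tests used edgeR 4.0.16 in R 4.3.3 on the counts: filterByExpr (minimum count 10, total 15; 14183 genes and at least 99.8% of counts kept), TMM scaling, a quasi-likelihood fit with group as the term, and Benjamini-Hochberg adjustment over all genes tested. CPM values are TMM-scaled and given as mean ± SD (n = 5), per kilobase where genes are compared. Libraries within a group differed by 2.04 to 4.07 times sampling noise (chi-square per degree of freedom), so none was counted as a duplicate. The code was tested on simulated data with 50 genes changed at each fold. It recovered 62% of changes of 1.25-fold, 74% of 1.5-fold, 84% of 2-fold and 96% of 3-fold. Of its calls there 8.14% were false. In the measured libraries 5156 of 14183 genes were called, and the recovered and false shares with so many calls were not tested. A gene without a call may still have changed by a small step.

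Values per library are given for called members of at least 1 CPM with the largest changes, up to 8 per class, and for the 3 most abundant per kilobase in each class; other members are given by count or range, and up to 4 genes with the smallest p per list. Replicate numbers occur in both groups, and same-numbered libraries' deviations correlated at 0.018, 0.001, -0.012 and 0.095. For floxed replicates 1 and 4, though not 2 and 3, the best-correlated knockout library was the same-numbered one. These values do not settle whether the libraries were paired, and the main fit took them as unpaired. Alternatives were DESeq2 1.42.0, library size alone, no filter or a minimum count of 50, limma 3.58.1 on log2 of FPKM plus 1, leaving out libraries, and a replicate block. Shared 50-base words were counted in GENCODE transcripts, which matched all 68 members, and members sharing at least 20% were summed in an alternative added after seeing the data.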

Additional observations from a re-analysis of the deposited data

Results flagged for a closer look

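Sets of 5 libraries were checked, a tested member or the summed level of a class in a group at a time. Of 102 sets, 4 held a library whose gap to the nearest of the others was above Dixon's critical value of 0.71 of the range. Chance gives about 1 in 20. Gsta1 had 292 CPM in knockout replicate 4 and between 255 and 261 CPM in the other knockout libraries. Its relative Gsta5 was high in the same library, at 2.93 CPM against 1.51 to 1.86 CPM, and the genes share transcript sequence. Gstz1, the maleylacetoacetate isomerase, had 64.7 CPM in floxed replicate 4 and between 72.6 and 74.5 CPM in the other floxed libraries. Sult1e1, the estrogen sulfotransferase, had 175 CPM in knockout replicate 3 and between 153 and 159 CPM in the other knockout libraries.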

How the results depend on the processing

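Of 18 called members, 15 kept their call and direction under all 17 alternatives listed for them. Sult1a1 ranged from -1.44 to -1.37 and Gstt2 from 0.67 to 0.77 on the log2 scale. The exceptions were Gstm3, Sult1c2 and Ugt2b5. Of 30 members without a call, Gsta1 alone gained a call, with library size alone (log2 -0.10) and without knockout replicate 4. With members that share transcript sequence summed, Ugt2b38, on its own at -0.10, took the value 0.094 of its sum with Ugt2b5, which holds most of the counts. Without both unnumbered libraries glutathione transferases had 5 higher and 2 lower, UDP-glucuronosyltransferases 2 and 0, and sulfotransferases 2 and 5. With the replicate block over the 8 numbered libraries, 2326 genes were higher and 2325 lower, the counts of members were again 5 and 2, 2 and 0, and 2 and 5, and the calls of Gstm3 (adjusted p = 0.052) and Ugt2b5 (adjusted p = 0.058) were lost. DESeq2 called 2451 genes higher and 2459 lower. The 5 higher genes of glutathione conjugate processing were 3 with DESeq2, no filter, the stricter filter, the replicate block and each of 7 single libraries left out, and 2 with library size alone and without both unnumbered libraries. A summing of members by protein identity was not run, since protein sequences were not used here. The 2 lower export pumps became 1 under 6 alternatives, and the 1 lower gene among other glutathione enzymes became 4 with library size alone and with the stricter filter, 2 with DESeq2, limma, the replicate block and without both unnumbered libraries, and 2 or 3 without any of 4 single libraries. Depth limited the 20 members too scarce for the test. Without a filter, Gsto2 alone of them passed.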

Other observations

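Other conjugating and detoxifying enzymes outside the 3 families also moved in both directions. Of these 18 genes 7 were higher and 4 lower, against 18.2% and 18.1% of all genes tested, with a median log2 change of 0.07. Gm4952, a glycine acyltransferase relative, rose from 22.6 ± 1.83 to 54.5 ± 4.59 CPM (log2 1.27, SE 0.061), and Glyat, which joins glycine to aromatic acids, rose by 0.36. Ephx2, the soluble epoxide hydrolase, rose from 174 ± 6.74 to 245 ± 7.01 CPM (log2 0.50). Baat, which joins taurine or glycine to bile acids, fell from 43.4 ± 0.865 to 30.0 ± 2.62 CPM (log2 -0.53).

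Phase I genes of the AhR, CAR, PXR, NRF2 and PPAR pathways had 9 of 17 higher and 5 lower. The shares of all genes tested were 18.2% and 18.1%, and the median log2 change of the list was 0.24. Its 4 genes with the smallest p-values, Acot1, Cyp4a14, Ehhadh and Cyp4a10, are PPARα targets and rose by 4.31, 3.75, 2.24 and 3.42. The genes that follow were picked with their values in view, and they leave out the other genes of this list that were higher. Those lie among Cyp1b1, Cyp2b9, Cyp2c55, Cyp3a13, Cyp3a25, Por, Txnrd1, Srxn1 and Hmox1, for which no values are given here. The falls below therefore do not stand for the list, in which 9 genes were higher and 5 lower. Among genes known to respond to CAR and PXR, Cyp2b10 fell from 303 ± 36.7 to 174 ± 27.0 CPM (log2 -0.80) and Cyp3a11 from 150 ± 7.42 to 123 ± 6.62 (log2 -0.29). Among genes known to respond to AhR, Cyp1a2 fell from 35.6 ± 1.09 to 29.9 ± 2.08 CPM (log2 -0.25) and Cyp1a1 from 5.30 ± 1.16 to 2.83 ± 0.545 (log2 -0.90), while Tiparp stood at 55.6 ± 3.61 and 56.3 ± 4.33 CPM without a call.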
